A study of Mus musculus with 30 samples.

Results

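The genes described here are 48 members of the TGF-beta, BMP and hedgehog signalling pathways, taken from a list of ligands, antagonists, receptors, signal transducers and target genes. A member was kept when at least 1 probe set was annotated with its symbol alone. All 48 had one, with 98 probe sets among 36701 in the series and 48 of its 15964 named genes. For a gene with several, the brightest one, by its mean over the 10 arrays of its chip, stood for the gene.

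RNA came from the dorsal pancreas of embryos of the NMRI mouse stock at 5 stages, embryonic day 12.5 (e12.5), e13.5, e14.5, e15.5 and e16.5. The labels name no mutation, transgene or treatment, and age is the only difference they give between the stages. Dorsal buds were pooled by litter, each pool's RNA was labelled in 2 reactions, and both products went onto Affymetrix mouse chips A, B and C, 30 arrays in all. Because 1 pool served both arrays of a stage, their spread is technical and stage and pool cannot be told apart. Whole buds were used and not sorted cells, so fewer cells of a type and less RNA per cell cannot be told apart.

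Ligands of the TGF-beta and BMP families bind pairs of type I and type II serine/threonine kinase receptors. Activated receptors phosphorylate receptor Smads, of which Smad2 and Smad3 serve TGF-beta and activin and Smad1 and Smad5 serve BMP. These join Smad4 and enter the nucleus, where the Id genes are among the best known BMP targets. Hedgehog ligands bind Ptch1, which releases Smo and lets Gli transcription factors act. In the early pancreas, sonic hedgehog is kept out of the Pdx1-positive epithelium, and activin, Gdf11 and BMP signals from mesenchyme and epithelium are known to guide growth and the choice between cell types.

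Values are log2 expression values, and a change is the slope of a line over the 5 pool means times 4 days, given ± SE. It counts as a rise or a fall where the adjusted p of the limma slope test, taken over all probe sets of the chips, is under 0.05. The median probe set read 5.71 to 5.76 on chip A arrays, 5.26 to 5.31 on chip B and 3.99 to 4.02 on chip C. No detection calls come with the values, so a probe set below the median of its chip is not shown to be above background. The 2 reactions of a pool differed by at most 0.31 in any member. Of 7 acinar markers, 5 were above the median of their chip at every stage. Of 6 pancreatic epithelium markers, 4 were above it at every stage and 1 was below it at every stage. Cpa1, a carboxypeptidase gene of acinar cells and their precursors, went from 10.75 to 13.31 and the transcription factor gene Ptf1a from 7.22 to 9.16. Pdx1 stayed near the median of chip A at 5.50 to 6.21.

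Of the 48 members, 19 fell, 3 rose and 26 did not pass. Among all 15964 genes 17.0% fell and 11.9% rose, against 39.6% and 6.25% of the members. The median change was -0.25 over the members and 0.02 over all genes. The falls lay mostly in the receptor, Smad and Id genes, roles that were combined after values were seen: 15 of these 21 fell and none rose. Of 14 secreted ligands, 1 fell and 1 rose. Of the 10 hedgehog genes 2 fell and none rose, a share of 20%, close to that of all genes. Members were bright more often than not. Among the 33 whose mean lay above the median of their chip, 18 fell and 2 rose, where 21.8% and 12.6% of all such genes did.

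**Figure D1:**
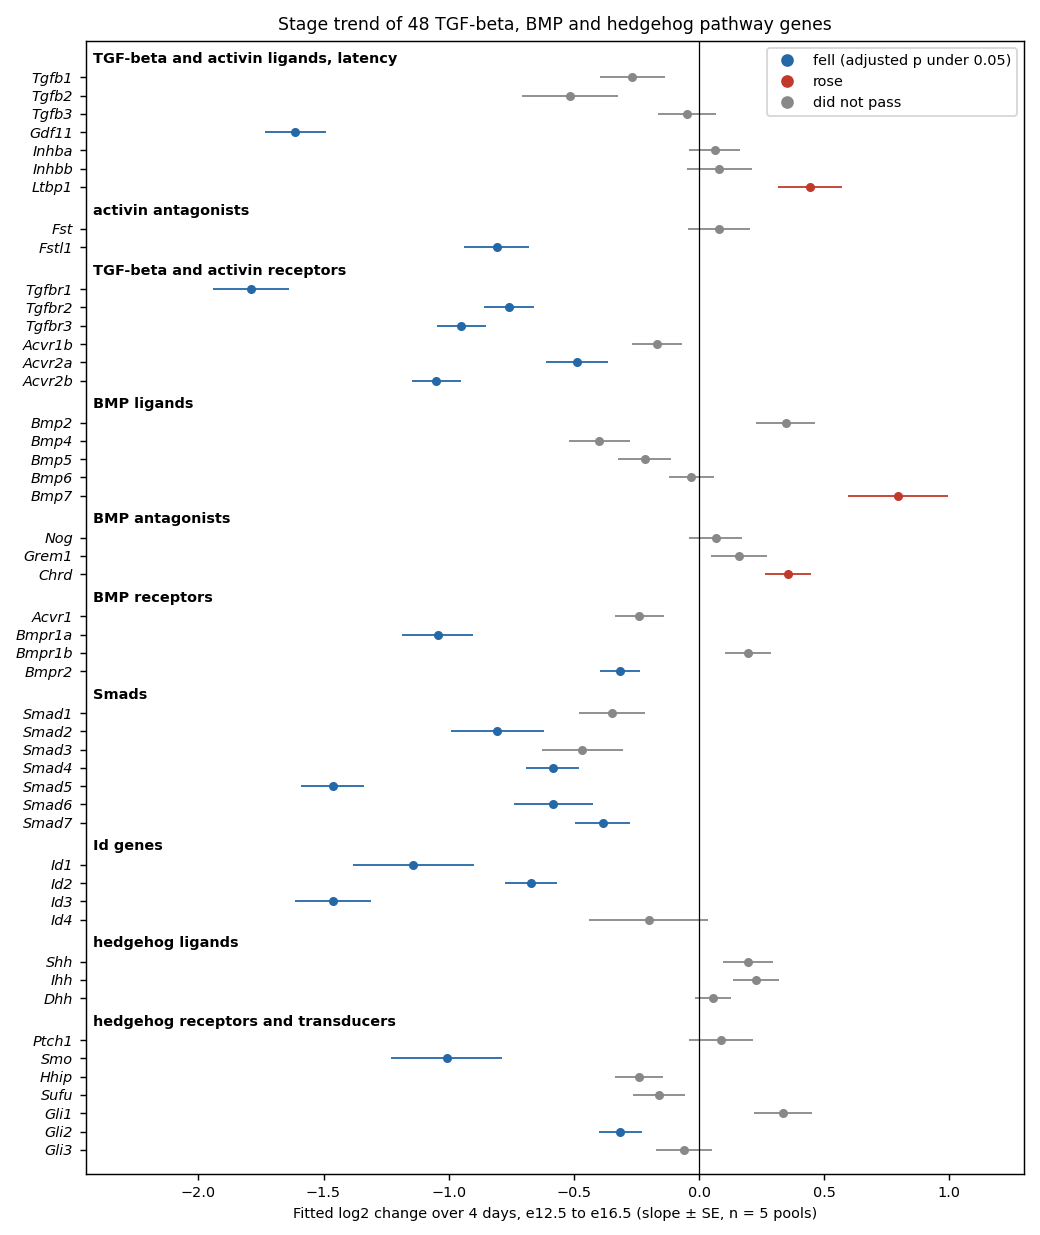
Fitted log2 change from e12.5 to e16.5 (x axis, slope over 4 days ± SE, n = 5 pools) for each of the 48 genes, grouped by role. Receptors, Smads and Id genes lie mostly left of 0, down to -1.79 for Tgfbr1, while most ligands and hedgehog genes lie within 0.5 of 0.

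Other cell types changed over the same days, and their part in these falls was not tested. Of 10 mesenchyme markers 6 fell and none rose, and their mean log2 level went from between 7.51 and 7.56 at e12.5 to between 6.50 and 6.62 at e16.5. Of 6 neuron and Schwann cell markers 4 fell and none rose, with means of 7.96 to 8.05 at e12.5 and 6.79 to 6.90 at e16.5. All 7 acinar markers rose, from means of 6.89 to 6.97 to means of 11.58 to 11.65. Endothelial markers fell in 3 of 7 and rose in 1, leukocyte markers fell in 2 and rose in 1 of 7, and red cell markers fell in 3 and rose in 2 of 5. Endocrine markers rose in 3 and fell in 1 of 7, pancreatic epithelium markers rose in 2 and fell in 1 of 6, and 1 of 3 liver markers rose. Mesothelial markers fell in 2 and rose in 2 of 5, and none of 5 stomach and duodenum markers or of the 1 spleen marker measured passed. No marker can read 0 on this scale, but 3 of 10 mesenchyme markers, Vim and Nkx3-2 among them, stayed below the median of their chip at every stage. So did 3 of 5 stomach and duodenum markers, Cdx2 and Sox2 among them, and the leukocyte gene Ptprc. The same held for 1 marker each of pancreatic epithelium, endocrine cells, endothelium and liver.

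Among the 6 ligands of the TGF-beta and activin branch, Gdf11 alone passed. Gdf11, a relative of myostatin that limits the number of endocrine progenitors in the embryonic pancreas, read 6.01 and 5.77 at e12.5, 5.75 and 5.69 at e13.5, 5.10 and 5.12 at e14.5, 4.77 and 4.67 at e15.5, and 4.34 and 4.40 at e16.5. Both arrays of each stage lay below both arrays of the stage before. The fitted fall was -1.61 ± 0.12, or 3.06-fold (adjusted p = 0.000329). From e14.5 on it lay below the median of chip B, so the fall can be understated. A dimmer probe set on chip A read 4.20 at e12.5 and 4.72 at e16.5 and did not pass (0.40 ± 0.16, adjusted p = 0.111), so the fall rests on 1 probe set.

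The 3 TGF-beta genes did not pass. Tgfb1 read 6.93 and 6.92 at e12.5, 6.67 and 6.69 at e13.5, 6.70 and 6.50 at e14.5, 6.44 and 6.65 at e15.5, and 6.60 and 6.72 at e16.5. Its e12.5 arrays were the highest and the later stages overlapped (-0.27 ± 0.13, adjusted p = 0.178). Tgfb3 had a change of -0.05 ± 0.12. Tgfb2 (-0.51 ± 0.19, adjusted p = 0.0973) and the activin subunit genes Inhba (0.06 ± 0.10) and Inhbb (0.08 ± 0.13) lay below the median of chip A at every stage, where little can be said of them. Without the e16.5 pool Tgfb2 passed, with a change of -0.88 (adjusted p = 0.0342).

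Ltbp1, which holds TGF-beta in its latent form in the matrix, rose by 0.45 ± 0.13 (adjusted p = 0.0382), from 4.56 and 4.74 at e12.5 to 5.22 and 5.22 at e16.5, below the median of chip B throughout. Its e13.5, e14.5 and e15.5 means were alike, at 5.01, 4.99 and 4.99, so the rise came in the first and the last step. Its probe set on chip A went the other way (-0.60 ± 0.16, adjusted p = 0.0356). The mean of its probe sets gave -0.16 (adjusted p = 0.226), so its direction is not settled. The rise also did not pass without e13.5 replicate 1 (adjusted p = 0.0622), or with the pool of e12.5 (0.25, adjusted p = 0.308), of e14.5 (adjusted p = 0.0557) or of e16.5 (adjusted p = 0.224) left out.

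The receptors of this branch fell in 5 of 6 genes. Tgfbr1, the type I receptor for TGF-beta, had the largest change of all members. Its arrays read 8.70 and 8.63 at e12.5, 8.14 and 8.06 at e13.5, 7.90 and 7.96 at e14.5, 7.42 and 7.52 at e15.5, and 6.77 and 6.71 at e16.5. No stage overlapped with its neighbours, and the fall came to -1.79 ± 0.15, or 3.46-fold (adjusted p = 0.000459). A dim second probe set on chip A did not pass (-0.35 ± 0.19).

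Tgfbr2, the type II receptor that binds TGF-beta first, fell from 7.33 and 7.39 at e12.5 through 7.29 and 7.27, 6.96 and 6.98, and 6.85 and 6.80 to 6.67 and 6.60 at e16.5 (-0.76 ± 0.10, adjusted p = 0.00209). The coreceptor gene Tgfbr3, or betaglycan, which presents TGF-beta2 and inhibin, fell from 8.72 and 8.56 to 7.78 and 7.66 (-0.95 ± 0.10, adjusted p = 0.000869). The activin type II receptor gene Acvr2b fell from 8.49 and 8.37 to 7.39 and 7.38 (-1.05 ± 0.10, or 2.07-fold, adjusted p = 0.00125). In each of these 3 genes the arrays of every stage lay below those of the stage before. Its paralogue Acvr2a moved less, from 6.02 and 6.19 at e12.5 and 6.13 and 6.25 at e13.5 to 5.72 and 5.63 at e16.5 (-0.49 ± 0.12, adjusted p = 0.034), and did not pass without e12.5 replicate 2 (adjusted p = 0.081) or without the e13.5, e15.5 or e16.5 pool (adjusted p = 0.0937, 0.0696 and 0.204), or with a mean over its probe sets (-0.28, adjusted p = 0.0587). The activin type I receptor gene Acvr1b was at 8.71 ± 0.07 at e12.5 and 8.54 ± 0.03 at e16.5 (mean ± SD of 2 reactions) and did not pass (-0.17 ± 0.10, adjusted p = 0.253).

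**Figure D2:**
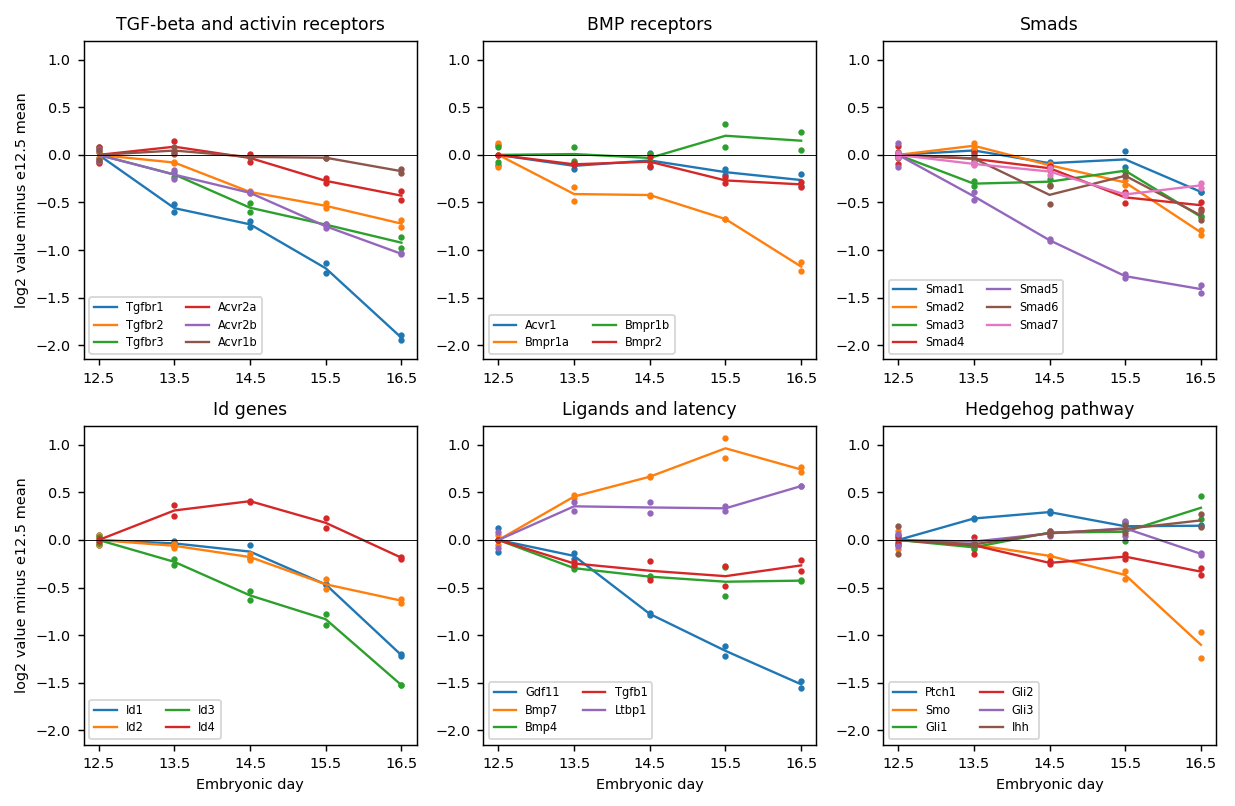
Log2 value minus the e12.5 mean (y axis) against embryonic day (x axis) for genes of 6 roles, with points for the 2 labelling reactions of each pool and lines through their means. Tgfbr1, Acvr2b, Bmpr1a, Smad5, Gdf11, Id1, Id3 and Smo end more than 1 below their start, Bmp7 ends 0.74 above it, and the hedgehog genes other than Smo stay within 0.5.

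Among the BMP ligands only Bmp7 passed. Bmp7, which is made in epithelium and mesenchyme of many budding organs, read 7.37 and 7.46 at e12.5, 7.86 and 7.88 at e13.5, 8.07 and 8.09 at e14.5, 8.27 and 8.49 at e15.5, and 8.13 and 8.19 at e16.5. It climbed to e15.5 and was lower in both arrays at e16.5 than at e15.5. The rise was 0.80 ± 0.20, or 1.74-fold (adjusted p = 0.0321). A second probe set on chip B, also far above the median, gave 7.24 at e12.5 and 7.31 at e16.5 and did not pass (0.07 ± 0.09, adjusted p = 0.608), so only 1 of 2 bright probe sets rose. Leaving out the pool of e12.5 (0.46, adjusted p = 0.221), of e13.5 (adjusted p = 0.0632) or of e15.5 (adjusted p = 0.0579) ended the call.

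Bmp4, the BMP of early foregut mesenchyme, read 6.60 and 6.59 at e12.5, 6.31 and 6.29 at e13.5, 6.21 and 6.21 at e14.5, 6.00 and 6.31 at e15.5, and 6.17 and 6.16 at e16.5. The arrays of e12.5 were above all others, but the line did not pass (-0.40 ± 0.12, adjusted p = 0.058). Its probe set on chip B rose instead (0.48 ± 0.10, adjusted p = 0.0141), from 5.27 to 5.82. A dim probe set on chip A had a negative slope, like the brightest, and did not pass (-0.37 ± 0.16, adjusted p = 0.135). The bright probe sets of the 2 chips thus differ in sign for Bmp4, and the brightest is of a design shared by similar sequences. Bmp2 (0.35 ± 0.12, adjusted p = 0.0759), Bmp5 (-0.22 ± 0.11) and Bmp6 (-0.03 ± 0.09) were below the median of chip A at every stage and did not pass. Without the e15.5 pool Bmp2 passed (0.42, adjusted p = 0.044).

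Of the 5 secreted antagonists of BMP and activin, 1 rose, 1 fell and 3 did not pass. Chrd, which encodes the BMP trap chordin, rose from 6.52 and 6.53 at e12.5 through 6.61 and 6.62, 6.59 and 6.68, and 6.68 and 6.79 to 6.80 and 7.01 at e16.5 (0.36 ± 0.09, or 1.28-fold, adjusted p = 0.0367). The end stages did not overlap, but the call was lost without any one pool (adjusted p between 0.0515 and 0.195) and without e14.5, e15.5 or e16.5 replicate 2 (adjusted p = 0.0547, 0.0664 and 0.0686). The noggin gene Nog (0.07 ± 0.11) and the gremlin gene Grem1 (0.16 ± 0.11) did not pass. The follistatin gene Fst, whose product traps activin, was dim, at 3.64 ± 0.02 at e12.5 and 3.76 ± 0.20 at e16.5. Fstl1, a follistatin-like glycoprotein of mesenchyme, fell from 7.89 and 7.88 to 7.12 and 7.02 (-0.81 ± 0.13, adjusted p = 0.00762), with most of the fall after e14.5, and without the e16.5 pool it did not pass (-0.69, adjusted p = 0.0597).

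Of the 4 BMP receptors, 2 fell. Bmpr1a, a type I receptor of BMP2 and BMP4, read 7.68 and 7.43 at e12.5, 7.21 and 7.07 at e13.5, 7.13 and 7.14 at e14.5, 6.88 and 6.88 at e15.5, and 6.43 and 6.34 at e16.5. It was flat between e13.5 and e14.5 and fell in the steps before and after (-1.04 ± 0.14, or 2.06-fold, adjusted p = 0.00228). Both of its other chip B probe sets fell as far (-1.17 ± 0.11 and -1.19 ± 0.14), while a dim one on chip C rose by 0.56 ± 0.09. Bmpr2, the type II BMP receptor, fell by 0.32 ± 0.08 on its brightest probe set (adjusted p = 0.0278), from 9.61 and 9.61 to 9.33 and 9.28, and by 0.89 ± 0.09 on a second one, from 7.85 to 6.97 (adjusted p = 0.000861). The first of these stands at percentile 99.5 of chip C. Its call was lost on leaving out e12.5 (adjusted p = 0.117), e13.5 (0.0629), e15.5 (0.0537) or e16.5 (0.137), and with a mean over its probe sets (-0.58, adjusted p = 0.0895). Another Bmpr2 probe set, on chip A, stood at 6.91 ± 0.08 at e13.5 against 5.44 ± 0.02 at e12.5 and 5.50 ± 0.08 at e14.5, a jump that none of the other Bmpr2 probe sets shows and that was picked out after its values were seen. Acvr1 (-0.24 ± 0.10) and Bmpr1b (0.20 ± 0.09) did not pass.

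All 7 Smad genes had a negative slope and 5 passed. Smad5, a carrier of BMP signals, fell the most, from 8.85 and 8.61 at e12.5 through 8.34 and 8.25 at e13.5, 7.82 and 7.85 at e14.5, and 7.48 and 7.44 at e15.5 to 7.36 and 7.28 at e16.5. No neighbouring stages overlapped, and the fall of -1.46 ± 0.13, or 2.76-fold (adjusted p = 0.00046), slowed in the last step. Its other 2 probe sets fell as well, by 1.00 ± 0.09 on chip C and by 0.57 ± 0.11 on chip A. Smad1, its close relative, did not pass (-0.35 ± 0.13, adjusted p = 0.0987). It stayed between 7.51 and 7.69 to e15.5 and read 7.25 and 7.26 at e16.5, lower than on any earlier array.

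Smad2, which carries TGF-beta and activin signals, read 7.82 and 7.79 at e12.5, 7.93 and 7.87 at e13.5, 7.68 and 7.71 at e14.5, 7.49 and 7.54 at e15.5, and 6.96 and 7.01 at e16.5. It was highest at e13.5 and fell by 0.81 ± 0.19 (adjusted p = 0.0243), with no call without the e13.5 pool (adjusted p = 0.0681) or the e16.5 pool (-0.43, adjusted p = 0.149), or with a mean over its probe sets (-0.26, adjusted p = 0.175). Smad3 ended at 7.37 and 7.38 after 7.86 and 7.86 a day earlier and did not pass (-0.47 ± 0.16, adjusted p = 0.0696), but it did without the e15.5 pool (-0.60, adjusted p = 0.0147). The shared partner Smad4 fell from 7.67 and 7.85 to 7.27 and 7.19 (-0.59 ± 0.11, adjusted p = 0.0117), and its chip C probe set fell by the same -0.59 ± 0.11. The chip A probe set had an adjusted p of 0.065 once e16.5 was left out.

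The inhibitory Smads, which the pathway itself induces and which block its receptors, fell by less than Smad5 and Smad2. Smad6 went from 6.98 and 6.92 at e12.5 to 6.27 and 6.36 at e16.5, with e14.5 (6.43 and 6.62) below e15.5 (6.72 and 6.74). Smad7 went from 5.94 and 5.98 to 5.61 and 5.67. Their changes were -0.58 ± 0.16 (adjusted p = 0.0409) and -0.38 ± 0.11 (adjusted p = 0.0468). Centring each array on its median ended both calls (adjusted p = 0.0561 and 0.0532), and leaving out the e12.5 pool gave 0.12 and 0.191, the e13.5 pool 0.107 and 0.121, and the e16.5 pool 0.26 and 0.0502. For Smad6 leaving out e14.5 replicate 2 gave an adjusted p of 0.0626. For Smad7 leaving out any array but e12.5 replicate 1 or e16.5 replicate 2 ended the call, with an adjusted p above 0.05 and at most 0.0664. Leaving out the e14.5 or the e15.5 pool ended the Smad7 call as well (adjusted p = 0.0764 and 0.0633).

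Of the 4 Id genes, 3 fell. Id proteins are inhibitors of basic helix-loop-helix factors and keep progenitors from differentiating. Id3 read 8.82 and 8.87 at e12.5, 8.64 and 8.59 at e13.5, 8.31 and 8.22 at e14.5, 7.96 and 8.07 at e15.5, and 7.32 and 7.32 at e16.5, with no overlap between neighbouring stages (-1.46 ± 0.15, or 2.75-fold, adjusted p = 0.00181). Id1 stayed at 8.48 and 8.38, 8.42 and 8.37, and 8.24 and 8.38 over the first 3 stages and then fell to 7.97 and 7.96 at e15.5 and 7.21 and 7.23 at e16.5. Its line gave -1.14 ± 0.24 (adjusted p = 0.0186), which did not hold without the e13.5 pool (adjusted p = 0.0545) or the e16.5 pool (-0.60, adjusted p = 0.0734). Id2, the brightest of the family on chip A, fell from 9.45 and 9.55 to 8.88 and 8.84 (-0.67 ± 0.10, or 1.59-fold, adjusted p = 0.00672).

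Id4 took another course. It read 5.31 and 5.34 at e12.5, 5.58 and 5.70 at e13.5, 5.73 and 5.74 at e14.5, 5.45 and 5.56 at e15.5, and 5.13 and 5.15 at e16.5, so the middle stages lay above both ends while its mean stayed just below the median of chip A. A quadratic term in embryonic day, which measures how far the middle stands above the ends, was 0.48 ± 0.07 for Id4 (limma adjusted p = 0.0486), the sole peak among members and no dip, where 0.357% of all genes had a peak and 0.294% a dip. For Id1 the same term was as large, 0.48 ± 0.08, and did not pass (adjusted p = 0.0704). The call for a peak is at the edge of the threshold: with arrays centred on their median, and with a mean over probe sets, no member had one. No member had one either without any one of the pools of e12.5, e13.5 and e14.5, without e13.5 replicate 2, either array of e14.5 or e15.5, or e16.5 replicate 1. Without the e15.5 pool 5 members had one, and without e12.5 replicate 1 there were 2.

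The windows before the start sites of 3 Id genes are printed below, because 2 of them fell together with the BMP receptor and Smad genes and the last did not. They come from RefSeq on GRCm38.p6 and run over the 250 bases before the start, 5′ to 3′ on the strand of the gene. Capitals mark GGCGCC, a GC-rich element that BMP Smads can bind.
Id2, chr12:25096093-25096342, minus strand: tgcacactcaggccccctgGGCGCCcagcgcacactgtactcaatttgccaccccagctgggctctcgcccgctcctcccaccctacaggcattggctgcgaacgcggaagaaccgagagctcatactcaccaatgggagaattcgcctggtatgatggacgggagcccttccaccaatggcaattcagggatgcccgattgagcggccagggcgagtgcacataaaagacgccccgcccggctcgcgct
Id3, chr4:136143572-136143821, plus strand: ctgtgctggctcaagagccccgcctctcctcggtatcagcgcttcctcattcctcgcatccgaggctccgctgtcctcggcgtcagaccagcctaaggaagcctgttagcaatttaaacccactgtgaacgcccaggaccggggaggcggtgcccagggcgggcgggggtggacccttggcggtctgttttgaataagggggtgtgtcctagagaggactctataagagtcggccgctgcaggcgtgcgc
Id4, chr13:48260866-48261115, plus strand: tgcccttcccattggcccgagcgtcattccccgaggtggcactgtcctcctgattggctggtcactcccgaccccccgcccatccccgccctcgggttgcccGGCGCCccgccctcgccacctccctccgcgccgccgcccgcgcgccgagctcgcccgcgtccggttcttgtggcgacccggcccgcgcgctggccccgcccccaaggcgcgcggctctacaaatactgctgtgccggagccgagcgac
Id2 and Id4 hold 1 copy each and Id3 holds none in this window. Id1 had no window in the promoter set used. The element GGCGCC was present in 10 of 42 windows of 36 members, or 23.8%, against 9.59% of 32851 windows of all genes. Member windows were also richer in G and C, with a median of 67.6% against 52.4%, and some windows of 1 gene overlap. Tgfbr1, the member with the largest fall, held a copy in 1 of its 2 windows.
Tgfbr1, chr4:47352972-47353221, plus strand: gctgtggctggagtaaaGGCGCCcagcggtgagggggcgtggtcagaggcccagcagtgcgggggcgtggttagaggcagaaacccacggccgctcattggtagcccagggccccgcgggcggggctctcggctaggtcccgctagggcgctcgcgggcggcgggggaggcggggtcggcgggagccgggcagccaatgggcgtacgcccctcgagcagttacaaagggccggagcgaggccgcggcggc
The letters were searched on both strands together with the Gli site GACCACCCA, the Smad palindrome GTCTAGAC and the short Smad site CAGACA, none of which contains another. The short site was in 11.9% of member windows and 17.1% of all windows. The Gli site and the palindrome were in none of the 42 windows, and in 0.225% and 0.167% of all windows. A match is a description of the sequence and does not show that a factor binds there.

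The hedgehog ligands did not pass. Ihh read 5.97 and 5.67 at e12.5 and 5.96 and 6.10 at e16.5 (0.23 ± 0.09, adjusted p = 0.116), and the 2 stages overlapped. It passed without e12.5 replicate 1, the higher of that pair (0.35, adjusted p = 0.03). Shh, whose product must stay out of the pancreatic epithelium, lay below the median of chip A at every stage, at 4.87 ± 0.04 at e12.5 and 5.02 ± 0.14 at e16.5 (0.20 ± 0.10, adjusted p = 0.2). Dhh, the ligand of Schwann cells and testis, stayed between 6.91 and 7.11 on all 10 arrays (0.06 ± 0.07) on a probe set of a design shared by similar sequences.

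The receptor gene Ptch1, itself a target that reports hedgehog activity, read 7.17 and 7.27 at e12.5, 7.44 and 7.46 at e13.5, 7.53 and 7.50 at e14.5, 7.33 and 7.40 at e15.5, and 7.37 and 7.37 at e16.5. All later arrays were above those of e12.5, and the line did not pass (0.09 ± 0.13, adjusted p = 0.649). Its dimmer probe sets, both on chip A and below the median there, did not pass either and differed in sign (0.11 ± 0.09 and -0.33 ± 0.16). Gli1, the other common readout of the pathway, was below the median of chip A throughout and did not pass (0.34 ± 0.12, adjusted p = 0.0801), although its e16.5 arrays, at 5.40 and 5.16, were its highest. It passed without e12.5 replicate 1 (0.38, adjusted p = 0.0457). Hhip, which encodes a membrane trap for hedgehog, was dim as well, at 3.87 ± 0.02 at e12.5 and 3.57 ± 0.03 at e16.5 (-0.24 ± 0.10, adjusted p = 0.106).

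Smo, the transducer that Ptch1 holds in check, fell. Its arrays read 7.15 and 7.34 at e12.5, 7.23 and 7.16 at e13.5, 7.08 and 7.08 at e14.5, 6.92 and 6.84 at e15.5, and 6.28 and 6.00 at e16.5. The first 2 stages overlapped and e16.5 lay far below the rest (-1.01 ± 0.22, or 2.01-fold, adjusted p = 0.0212). With e16.5 left out the change was -0.49 (adjusted p = 0.0594), and with e13.5 left out the adjusted p was 0.0604. Gli2, the main activator among the Gli factors, fell by 0.31 ± 0.08 (adjusted p = 0.0326), from 5.68 and 5.63 to 5.28 and 5.36, and by 0.82 ± 0.10 on a dim probe set of chip A (adjusted p = 0.00263). The smaller of these falls did not pass with p-values adjusted within each chip (adjusted p = 0.0546), without e13.5 replicate 1 (adjusted p = 0.0579), without e15.5 replicate 1 (adjusted p = 0.0548), or without the e12.5, e13.5 or e16.5 pool (adjusted p = 0.154, 0.0907 and 0.18). Gli3, mostly a repressor, was at 6.13 ± 0.09 at e12.5 and 5.98 ± 0.02 at e16.5 (-0.06 ± 0.11), with a rise of 0.43 ± 0.10 on a dim probe set of chip B. Sufu, which holds Gli proteins in the cytoplasm, did not pass (-0.16 ± 0.10, adjusted p = 0.292).

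The falling genes did not share 1 time course. Of the 19, 12 went down in each of the 4 daily steps, and in 7 both arrays of every stage lay below both arrays of the stage before (Tgfbr1, Tgfbr2, Tgfbr3, Acvr2b, Gdf11, Smad5 and Id3). The largest step was the last, e15.5 to e16.5, in 7 genes, e14.5 to e15.5 in 7 and e13.5 to e14.5 in 5. None of these counts was made over all falling genes, so they do not set the members apart. In Smo 66.6% of the difference between e12.5 and e16.5 came in the last step, in Smad6 65.5%, in Smad2 64.5% and in Id1 61.4%. In Smad5 it was 9.62%, after 30.8% in the first step and 32.7% in the second. Gdf11 had its largest share, 40.2%, in the step from e13.5 to e14.5.

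**Figure D3:**
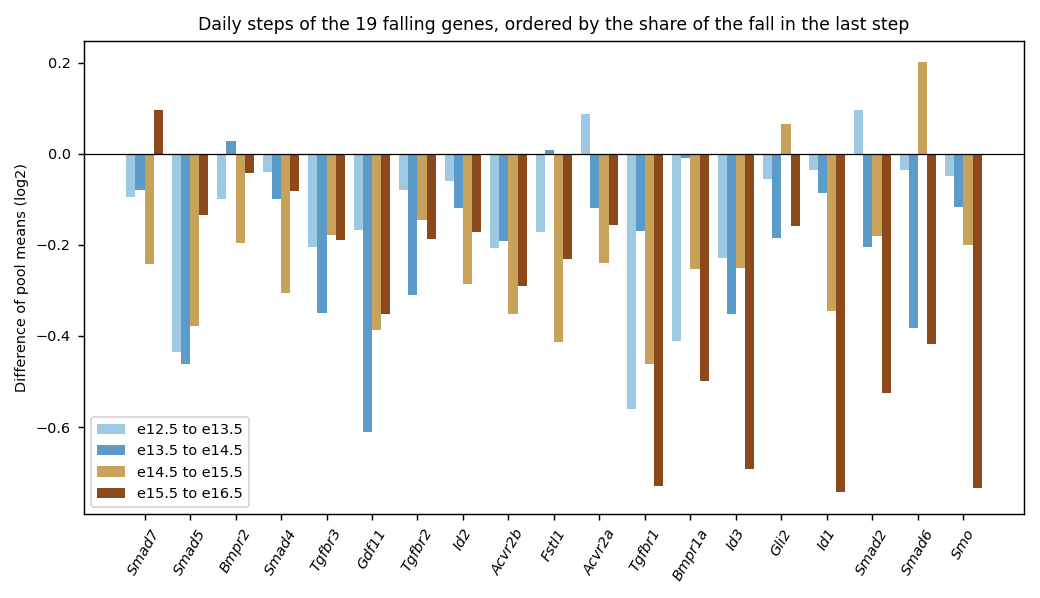
Difference of pool means between consecutive stages (y axis, log2) for the 19 falling genes, ordered from left to right by the share of the fall that came in the last step. Smad5 falls early, while Id1, Smad2, Smad6 and Smo, at the right, fall mostly between e15.5 and e16.5.

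No member changed by 2-fold in 1 day. Between e15.5 and e16.5, 0.132% of all genes were at least 2-fold lower and 0.313% at least 2-fold higher, and these shares were 0.0752% and 0.470%, 0.0251% and 0.157%, and 0.0626% and 0.125% in the steps before, going back in time. With a lower bound of 1.5-fold, Id1, Id3, Smo and Tgfbr1 were lower at e16.5 than at e15.5, as were 2.38% of all genes. Gdf11 was lower at e14.5 than at e13.5, as were 0.345% of all genes. With 1 pool per stage these single steps have no test. The e16.5 pool also differed from e15.5 in other ways: leukocyte markers went from means of 5.82 to 5.92 up to 6.90 to 6.93, and red cell markers from 9.35 down to 8.52 to 8.53. Their part in the last step was not tested. Without the e16.5 pool 10 members fell and 1 rose, and without the e13.5 pool 11 fell and 1 rose.

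Several probe sets were available for 31 members. Of the 12 falling genes among them, 6 had another probe set that fell, and in 1 of these, Bmpr1a, a further one rose. In the other 6 (Gdf11, Tgfbr1, Tgfbr2, Acvr2a, Acvr2b and Smad2) no other probe set passed, and all of those lay below the median of their chip. The slope of these dim probe sets was positive for Gdf11 (0.40), Tgfbr2 (0.23), Smad2 (0.29) and 1 of Acvr2b (0.20), and negative for the rest. The remaining 7 falling genes had a single probe set. A mean over all probe sets of a gene, dim ones included, gave smaller falls for Gdf11 (-0.61), Tgfbr1 (-1.07), Tgfbr2 (-0.27) and Acvr2b (-0.32), each still past the threshold. It ended the calls of Acvr2a (-0.28, adjusted p = 0.0587), Smad2 (-0.26, adjusted p = 0.175) and Bmpr2 (-0.58, adjusted p = 0.0895). Of 17 genes without a call, Bmp4 and Gli3 had another probe set that rose.

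**Figure D4:**
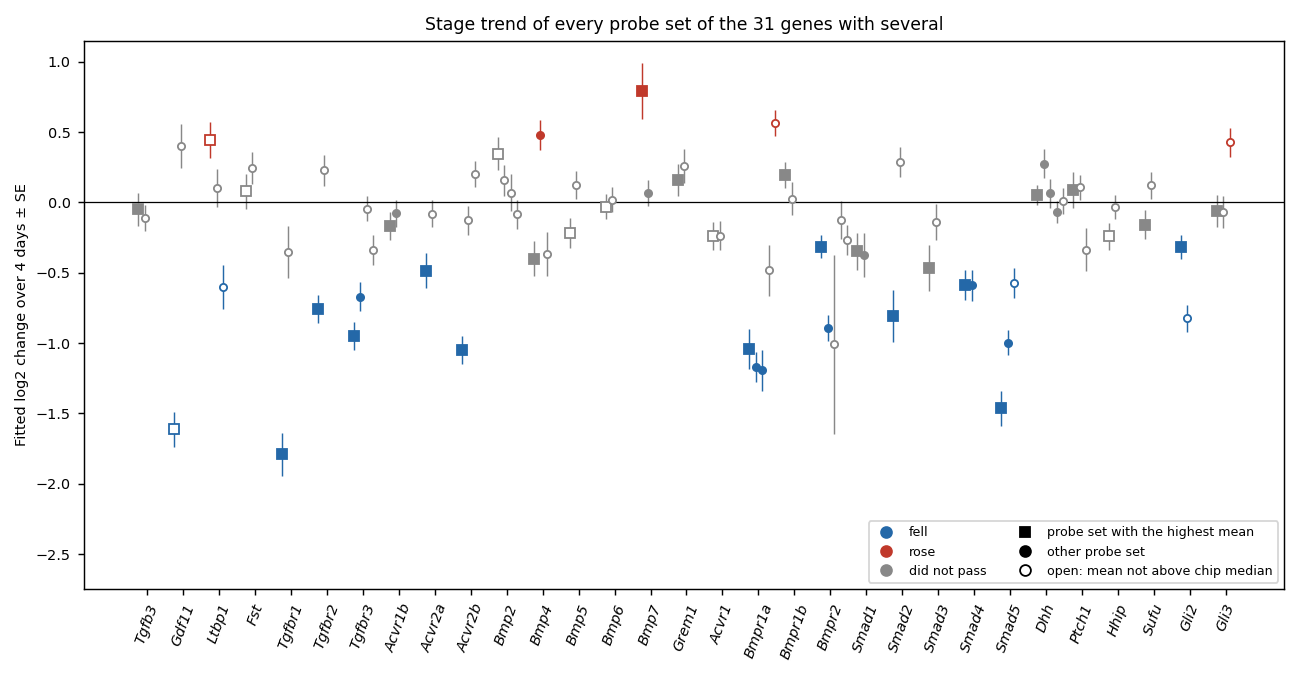
Fitted log2 change over 4 days ± SE (y axis) for every probe set of the 31 genes with several, with squares for the brightest and circles for the others, open where the mean did not exceed the chip median. The filled probe sets of Bmpr1a, Bmpr2, Smad4, Smad5 and Tgfbr3 point the same way, and those of Bmp4 and Bmp7 do not match.

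Other genes of the same pathways were taken from a separate list of 96, of which 79 were measured. Of these 22 fell and 5 rose, with a median change of -0.04. The shares were 27.8% and 6.33%, against 17.0% and 11.9% of all genes. Among all genes whose mean lay above the median of their chip, 21.8% fell and 12.6% rose. Smad regulators and targets fell in 9 of 17 and none rose, hedgehog components fell in 8 of 23 and 1 rose, and coreceptors and other receptors fell in 2 and rose in 2 of 9. The remaining ligands and antagonists gave 1 fall and 1 rise among 16 of the TGF-beta branch and 2 falls and 1 rise among 14 of the BMP branch. The falls were led by Tgfbi, a matrix protein induced by TGF-beta (-3.15 ± 0.53, adjusted p = 0.0088). Next came the hedgehog coreceptor gene Gas1 (-1.62 ± 0.17), the Smad corepressor genes Tgif1 (-1.23 ± 0.24) and Ski (-1.13 ± 0.16), and Gpc3, a glypican that binds hedgehog (-1.18 ± 0.13). Sostdc1, a secreted BMP and Wnt antagonist, rose to 6.64 ± 0.10 at e16.5 after 3.81 ± 0.03 at e12.5 (2.91 ± 0.42, adjusted p = 0.00285), having been below the median of chip B through e15.5. Disp1, which releases hedgehog from the cells that make it, rose by 0.58 ± 0.12, while Acvr1c (0.74 ± 0.11), Gdf10 (0.60 ± 0.12) and Hjv (0.50 ± 0.14) rose below the median of their chip.

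Of the 22 calls among members, 9 held under every alternative that was run, all of them falls. These were Tgfbr1, Smad5, Gdf11, Id3, Acvr2b, Bmpr1a, Tgfbr3, Tgfbr2 and Id2, with adjusted p-values of at most 0.0464 in limma's slope test. Gdf11 was not among the probe sets of the alternative limited to bright ones. With the arrays of replicate 1 alone, Acvr2a, Chrd, Bmpr2, Smad6 and Smad7 did not pass (adjusted p = 0.147, 0.184, 0.0937, 0.051 and 0.0671). With those of replicate 2 alone, Ltbp1, Smad7 and Gli2 did not (adjusted p = 0.0901, 0.0818 and 0.192). Quantile normalization of the arrays once more ended the call of Smad6 (adjusted p = 0.0571).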

How the data were processed

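The deposited values were log2 expression values per probe set on Affymetrix mouse chips A, B and C, made by the authors with RMA per the submitters' processing notes. Its software version is not given in the sources read. Probe sets were named through the platform annotation (29131 with 1 symbol, 724 with several, which were left unnamed, 6846 unnamed here).

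The 2 labelling reactions of a pool were averaged, giving n = 5 pools per chip. Slopes against embryonic day were estimated for all probe sets with limma 3.58.1 in R 4.3.3, p-values were adjusted over all chips at once (Benjamini-Hochberg), and 0.05 was the threshold. A quadratic term was tested likewise, and single steps between stages had no test. Each gene used its brightest probe set. All members, some of their other probe sets that differed, and up to 5 further pathway genes per direction by size of change were named. Members and lists were chosen with earlier results of these data known, and roles were combined after values were seen. Alternatives covered scaling, filtering, the labelling reactions and left-out arrays or pools. Motifs were counted in RefSeq promoter windows of GRCm38.p6. The fits were tested on data simulated for chip A alone, with equal noise in every probe set. There the slope test recovered 84 of 100 changes of 1.5-fold and 100 of 100 of 2-fold, with 6 false calls among 12222 unchanged probe sets. Smaller changes were not simulated.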

Additional observations from a re-analysis of the deposited data

How the results depend on the processing

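Of 1233 refitted changes of single members, 1135 kept their side of the threshold, 68 lost the call and 29 gained one. Among members with a call 1 change reversed in sign, that of Ltbp1 with a mean over probe sets (-0.16). A member without a call could change sign and still count as kept. Bmp4, at -0.40 in the chosen fit, reached 0.05 in such a refit. Against 19 falling and 3 rising members, leaving out 1 array or reaction gave 15 to 19 falling and 2 to 5 rising. Without the e12.5, e13.5, e14.5 or e16.5 pool 0, 1, 1 and 1 rose, and without the e13.5 or e16.5 pool 11 and 10 fell. Treating the 10 arrays as separate samples gave 26 falling and 6 rising. The numbers of the labelling reactions did not pair samples across stages (1 of 30 correlations of deviations was over 0.1). With the replicate block 25 members fell and 5 rose. Peaks, 1 in the chosen fit, numbered 0 with median centring, bright probe sets only, a mean over probe sets, or without the e12.5, e13.5 or e14.5 pool. They numbered 2 when adjusted within chips, 5 with the pool as a random block, 6 with separate arrays, 5 with the replicate block, 5 without the e15.5 pool, and 0 to 2 without 1 array. Dips, none in the chosen fit, numbered 1 with separate arrays and 1 with the replicate block. Steps of 1.5-fold downward numbered 5, and of 2-fold 0. Over all probe sets 3886 rose and 4825 fell. Rises numbered 2143 among bright probe sets, 7957 with separate arrays, 7580 with the replicate block, 1874, 2207 and 1275 without the e12.5, e13.5 and e16.5 pools, and 2835 to 4035 without 1 array or reaction. Falls numbered 7538 with separate arrays, 7313 with the replicate block, 2278 without the e16.5 pool and 3979 to 4999 without 1 array or reaction. Fewer pools leave fewer residual degrees of freedom, and arrays of 1 pool counted apart add some without adding animals. The cause of the other shifts was not tested. Below the chip medians, where 13 members lay at every stage, the signal limits what can be seen.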
